A study of Mus musculus with 16 samples.

Results

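The genes described here are Myc and 39 genes of ribosome biogenesis, most of which are listed among the targets of Myc. They are nucleolar proteins, protein factors of box C/D and box H/ACA small nucleolar RNAs, subunits of RNA polymerase I, and assembly factors of the small and the large ribosomal subunit. The 40 genes were taken by their symbols from a table of raw read counts over 25239 genes. All 40 were in the table, and all 40 were among the 14124 genes with enough counts to be tested. The table came from bulk RNA-seq of hematopoietic stem cells (HSCs), the blood-forming stem cells of bone marrow, from mice aged 4 to 6 months. Of the 16 libraries, 8 were of HSCs with a knockout of Selp (SelpKO, here KO) and 8 of HSCs with wild-type Selp (SelpWT, here WT). Selp encodes P-selectin, an adhesion receptor whose best-known ligand is P-selectin glycoprotein ligand-1 (PSGL-1). PSGL-1 was added at 125 ng/mL, for 24 hours, to the cells of 3 KO and 2 WT libraries. Cells treated with vehicle gave 3 KO and 3 WT libraries, and freshly sorted cells gave 2 KO and 3 WT libraries. All cultured cells, vehicle ones included, were kept in serum-containing medium with the cytokines Flt-3 ligand, IL-11 and SCF. The length of the vehicle cultures, the making of the knockout and any pooling of animals were not given in the sources used here. Since nothing states that libraries of a group come from separate animals, every p-value here reflects only how far these samples spread, and that spread may be technical.

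Ribosomes are built in the nucleolus. RNA polymerase I transcribes the precursor of the ribosomal RNAs, box C/D and box H/ACA small nucleolar ribonucleoproteins modify and help to process it, and many assembly factors cut, fold and export the pre-ribosomal particles. The transcription factor Myc, which binds DNA together with Max at E-boxes, is known to raise the transcription of many of these genes when cells enter growth. HSCs in the marrow are mostly quiescent and are known for low rates of protein synthesis.

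The library labels were checked on Selp, which ranged from 0 to 12.5 CPM, counts scaled to a library of 1000000 after TMM normalization, in the 8 KO libraries, against 16.3 to 188 CPM in the 8 WT libraries. Totals per library ranged from 12590539 to 24690824 counts, so 3 counts, used as the detection floor, were worth 0.122 to 0.238 CPM. HSC marker genes Kit, Ly6a, Procr, Mecom and Hlf had counts in all 16 libraries, while Slamf1 was at 0 in 3 and Fgd5 at 0 in 1. Cd3e, Ms4a1 and Hba-a1, markers of T, B and red cells, had no counts in any library. Other markers of these lineages had some, with means of 34.3 CPM for Cd79b, 26.2 CPM for Nkg7, 25.96 CPM for Epor and 12.3 CPM for Klf1, and their part in the results was not tested. Replicate 1 of the WT PSGL-1 group stood apart, with 9035 genes detected where the other 15 had 11101 to 13480. It enters every fit, since the spread was estimated from all 16 libraries together, and results that rest on it are given without it as well.

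Promoter sequence was available for 34 of the 40 genes, as RefSeq windows on GRCm38.p6 (mm10) from 250 bases before to 50 after the annotated start. The E-box CACGTG, the sole motif searched, which reads the same on both strands, occurred in the windows of 7 genes (20.6%): Mybbp1a, Utp20, Nop2, Tsr1, Wdr43, Ltv1 and Pes1. It occurred in 11.6% of the 11119 tested genes that have a window and in 8.09% of the 27025 genes with one. The stretches around the E-box are shown for the 4 of these genes with the smallest p in the comparison of vehicle culture with fresh cells, since this motif is the site that Myc and Max are known to bind. Capitals mark the E-box, and each stretch is read 5′ to 3′ on the gene's strand.
Mybbp1a, chr11:72441347-72441376, plus strand: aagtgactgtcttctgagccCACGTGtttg
Utp20, chr10:88826765-88826794, minus strand: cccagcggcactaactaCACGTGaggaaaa
Nop2, chr6:125131811-125131840, plus strand: gtgtccctggatCACGTGtgttccggtgcc
Tsr1, chr11:74898092-74898121, plus strand: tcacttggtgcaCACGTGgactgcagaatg
Nhp2, the gene with the smallest p in that comparison, has no CACGTG in its window. The 100 bases before its start are shown for contrast, all in lower case because no motif was marked.
Nhp2, chr11:51619673-51619772, plus strand: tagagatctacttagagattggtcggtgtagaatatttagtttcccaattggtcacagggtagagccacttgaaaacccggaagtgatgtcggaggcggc
The E-box began 40 bases after the start of Mybbp1a, 37 after that of Utp20 and 24 after that of Tsr1. In Nop2 it lay upstream, at −60. Of these 4 genes, Mybbp1a alone passed the test between vehicle culture and fresh cells, and 9 other genes of the set that passed it are described below. A match of 6 letters describes the sequence and shows no binding.

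Per kilobase of exon, which allows levels of different genes to be set side by side, the 40 genes were abundant. Their median over all 16 libraries was 38.8 CPM per kb, against 6.28 CPM per kb over the 13812 tested genes with an annotated length. The highest were Npm1, a nucleolar chaperone, at 272 CPM per kb, and Nhp2 and Myc, both at 218 CPM per kb. Nop56 followed at 146 and Ncl at 109 CPM per kb. The lowest were 2 genes of very long proteins, the processome component Utp20 at 5.89 CPM per kb and Polr1a, the catalytic subunit of RNA polymerase I, at 7.37 CPM per kb. These orders are over all libraries together. The divisor was the union of all annotated exons of a gene, so the order depends on the annotation. It was 10188 bases for Ncl, 2665 for Npm1 and 1146 for Nhp2. In CPM alone Ncl was highest, with a mean of 1110 CPM over the 16 libraries. In fresh cells Nhp2 was at 92.9 CPM per kb in KO and 146 in WT, and Myc at 232 in KO and 227 in WT.

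**Figure D1:**
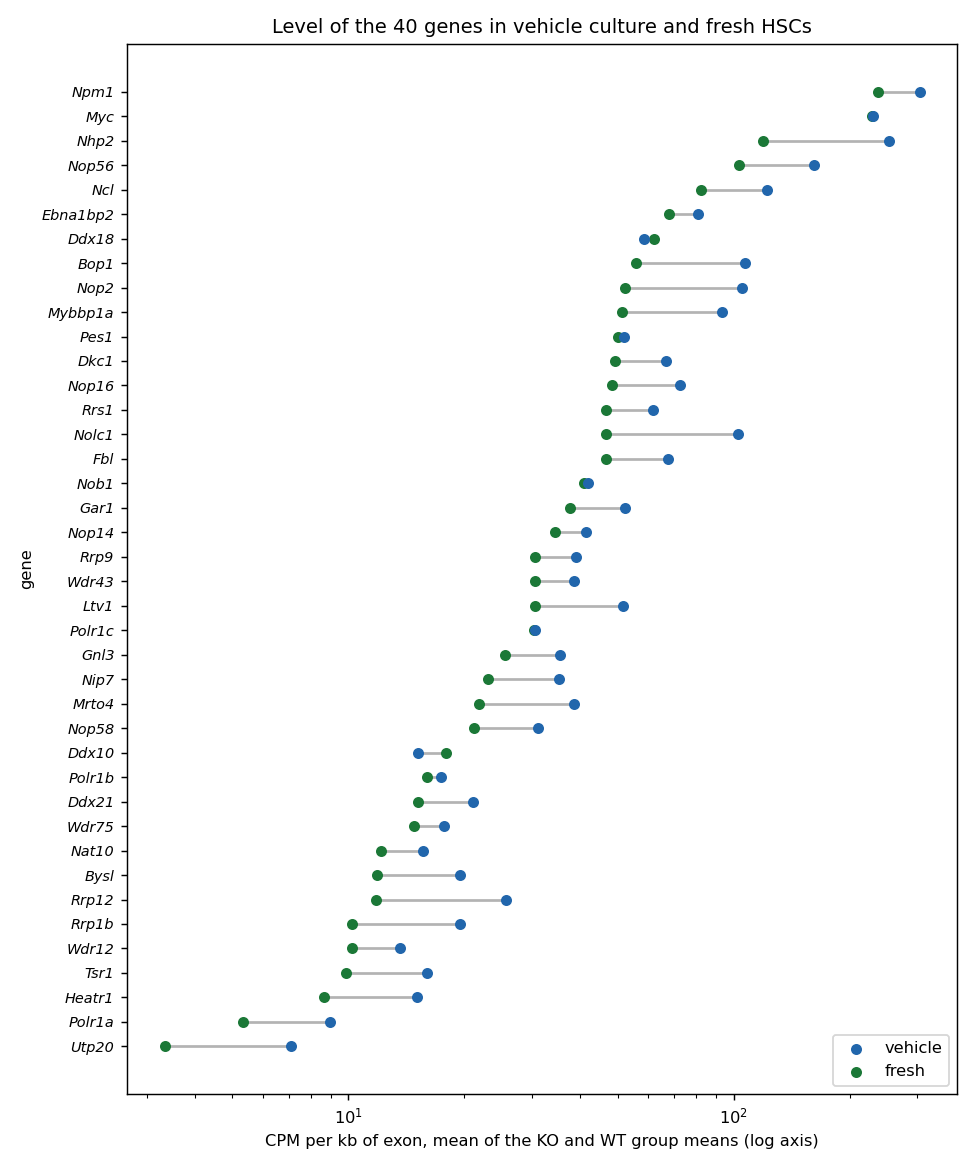
Level of each of the 40 genes in CPM per kb of exon (log axis), as the mean of the KO and WT group means, in vehicle culture (blue) and fresh cells (green). The vehicle point lies to the right of the fresh point for most genes, and the points of Myc, Polr1c, Nob1 and Pes1 nearly coincide.

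The comparison of vehicle culture with fresh cells asks what culture in cytokine-containing medium did to these genes in the absence of added PSGL-1. Summed over the 40 genes, the level was higher in culture. It was 9050.3 ± 824 CPM in KO and 9961 ± 968 CPM in WT vehicle cultures (SD, n = 3 each), against 6363 ± 271 CPM in fresh KO (SD, n = 2) and 6944 ± 324 CPM in fresh WT cells (SD, n = 3). With PSGL-1 it was 8958 ± 544 CPM in KO (SD, n = 3) and 9554 ± 1677 CPM in WT cells (SD, n = 2). Each of the 11 cultured libraries, from 8369 to 10739.9 CPM, lay above each of the 5 fresh ones, from 6172 to 7318 CPM. In bulk RNA, more cells of a kind and more RNA per cell cannot be told apart.

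**Figure D2:**
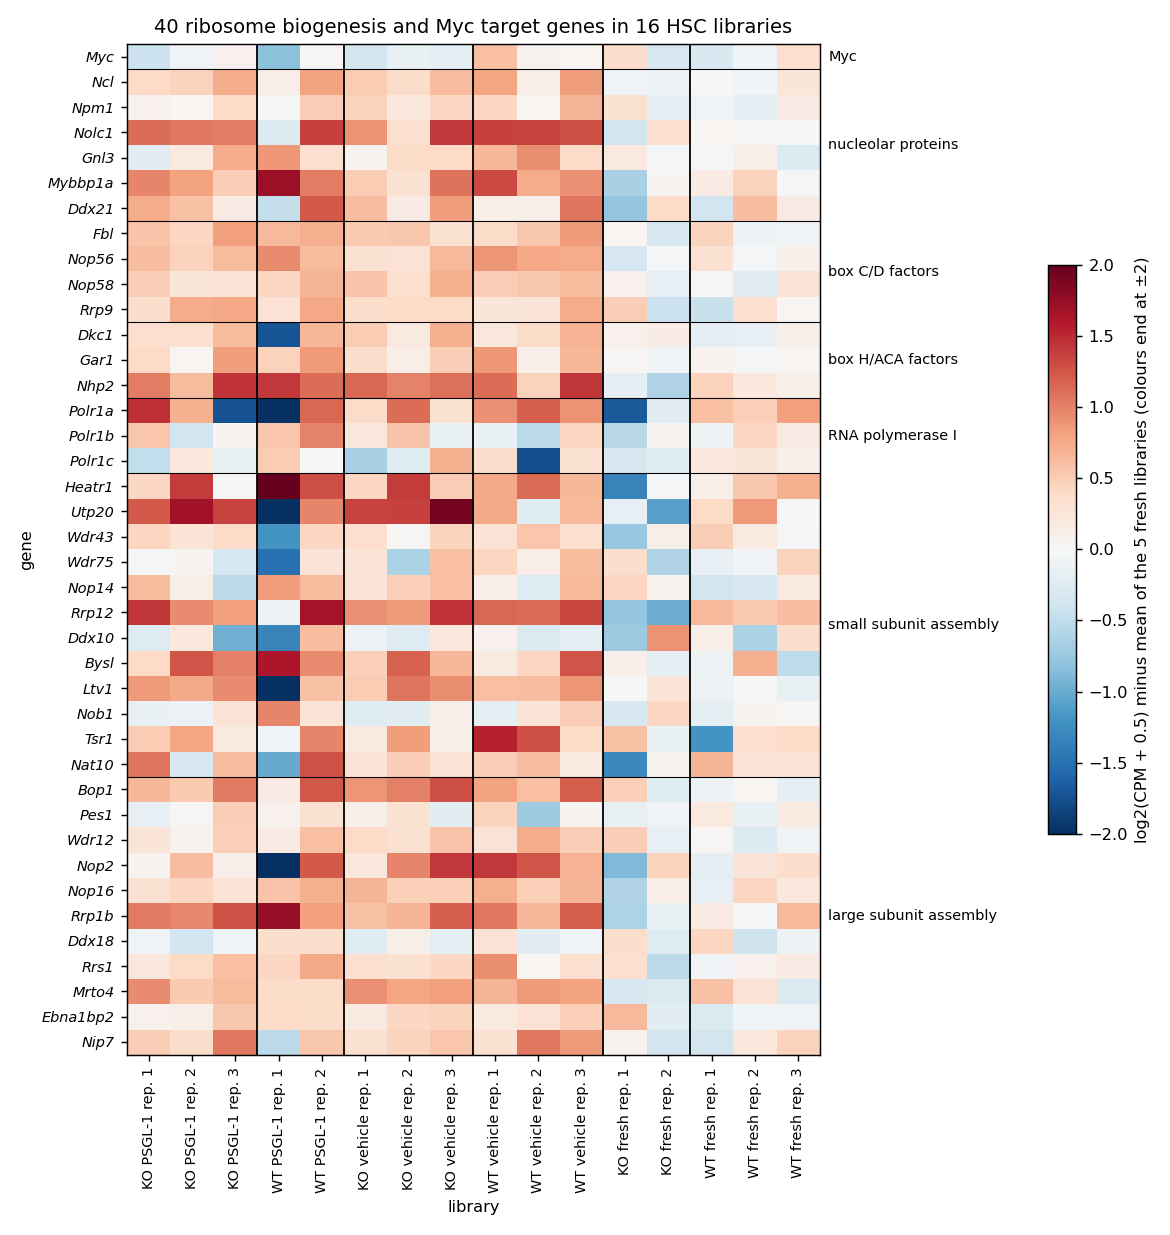
Level of the 40 genes (rows, by role) in the 16 libraries (columns, by group), as log2(CPM + 0.5) minus the mean of the 5 fresh libraries, with colours that end at 2 in either direction. Cultured columns are mostly red and fresh ones pale, and WT PSGL-1 replicate 1 shows strong blue at Ltv1, Utp20, Polr1a, Nop2 and Dkc1.

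Averaged over both genotypes, 10 of the 40 genes rose in vehicle culture and none fell in edgeR's quasi-likelihood test, at p under 0.05 after Benjamini-Hochberg adjustment over the whole table. DESeq2 called 12 and limma voom 13 of the 40 higher, where 6.73% and 6.22% of all genes were. Over all 14124 genes, 4.18% rose and 2.3% fell. Among the 40, 20 had an unadjusted p under 0.05, where the share over all genes was 20%. The log2 fold change was above 0 for 37 of them, with a median of 0.51, against −0.07 over all genes. Every one of the 6 vehicle libraries lay above every one of the 5 fresh libraries for 8 of the 40 genes, and below for none. Those 8 were Nop58, Dkc1, Gar1, Rrp12, Ltv1, Bop1, Nop16 and Mrto4, and the share over all genes was 4.56% above and 4.91% below. The 2 WT PSGL-1 libraries are in neither of these groups but enter the shared estimate of the spread. Without replicate 1 of them 15 of the 40 rose, the same 10 among them, where 6.14% of all genes did, and without replicate 2 the same 15 rose, where 6.09% did. The 5 added were Fbl, Nop16, Nop2, Utp20 and Ltv1. Without KO fresh replicate 1, 4 of the 40 rose, Nhp2, Nop56, Rrp12 and Bop1, where 2.59% of all genes did.

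Of the 6 nucleolar proteins, 3 rose and the median log2 fold change was 0.53. Nolc1, a chaperone of small nucleolar ribonucleoproteins (chr19:46075847-46085543), had 341, 228 and 488 CPM in KO and 471, 469 and 451 CPM in WT vehicle cultures, against 142 and 229 CPM in fresh KO and 188, 187 and 182 CPM in fresh WT cells. The WT libraries were well separated and closely grouped, whereas the lowest KO vehicle library met the higher fresh KO one. Its log2 fold change was 1.13 (SE 0.26, adjusted p = 0.0163). Mybbp1a, a nucleolar Myb-binding protein that acts in ribosomal RNA transcription (chr11:72441327-72451770), had 425, 369.9 and 634 CPM in KO and 750.0, 501 and 564 CPM in WT vehicle cultures. In fresh cells it had 190.4 and 310.5 CPM in KO and 335, 412 and 293 CPM in WT. Within each genotype the groups did not overlap, and the log2 fold change was 0.87 (SE 0.20, adjusted p = 0.0177). Without KO fresh replicate 1 the calls of both genes were lost, with adjusted p = 0.107 for Nolc1 and 0.12 for Mybbp1a.

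Ncl, nucleolin, the most abundant of the 40 in CPM, averaged 1194 ± 103 CPM in KO vehicle cultures and 1289 ± 324 CPM in WT ones (SD, n = 3 each). In fresh cells it averaged 788 ± 20.1 CPM in KO (SD, n = 2) and 886 ± 98.5 CPM in WT (SD, n = 3). Its log2 fold change of 0.57 (SE 0.16) was close to the threshold, at adjusted p = 0.0408, and 11 of the 16 fits that left out a library lost the call. The helicase Ddx21 had 115, 84.1 and 134 CPM in KO and 82.6, 81.6 and 159 CPM in WT vehicle cultures, against 43.4 and 98.1 CPM in fresh KO and 57.6, 116 and 84.1 CPM in fresh WT cells. Its libraries overlapped in both genotypes, and its log2 fold change of 0.49 (SE 0.34) did not pass. Npm1 and Gnl3, nucleostemin, were at 0.36 (SE 0.16, adjusted p = 0.203) and 0.46 (SE 0.19, adjusted p = 0.188) and did not pass either.

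Box C/D particles carry out ribose methylation of ribosomal RNA or, in the case of Rrp9, guide early cleavage of the precursor. Of the 4 box C/D factors 2 rose, and the 4 log2 fold changes lay between 0.35 and 0.64. Nop56, a core protein of the particle (chr2:130274367-130279313), had 528, 525 and 675 CPM in KO and 791, 737 and 719 CPM in WT vehicle cultures. In fresh cells it had 339.6 and 421 CPM in KO and 528, 417 and 459 CPM in WT. The genotypes were shifted against each other, so that the highest fresh WT library was level with the lower KO vehicle ones, yet within each genotype culture and fresh did not overlap. Its log2 fold change was 0.64 (SE 0.12, adjusted p = 0.00526), and all 16 fits that left out a library kept the call. Nop58, its partner in the particle (chr1:59684961-59711510), had 339, 283 and 374 CPM in KO and 322, 332 and 354 CPM in WT vehicle cultures. In fresh cells Nop58 had 242 and 204 CPM in KO and 229, 195 and 276 CPM in WT. The highest fresh value lay just under the lowest vehicle value. Its log2 fold change was 0.55 (SE 0.14, adjusted p = 0.025), a call lost in 7 of the 16 fits without a library.

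Fibrillarin, Fbl, the methyltransferase of the box C/D particle, averaged 270.3 ± 24.5 CPM in KO vehicle cultures and 298 ± 51.9 CPM in WT ones (SD, n = 3 each). Fresh cells averaged 179.6 ± 29.9 CPM in KO (SD, n = 2) and 213 ± 47.9 CPM in WT (SD, n = 3). It just missed the threshold, with a log2 fold change of 0.54 (SE 0.16, adjusted p = 0.0516). Rrp9, a protein specific to the small nucleolar RNA that guides early cleavage of the precursor, had 109.8, 114 and 114 CPM in KO and 102, 103 and 145 CPM in WT vehicle cultures. It had 122 and 63.4 CPM in fresh KO and 63.1, 109 and 88.9 CPM in fresh WT cells. These libraries overlapped in both genotypes, and the log2 fold change of 0.35 (SE 0.22) did not pass.

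Of the 3 box H/ACA factors, which carry out pseudouridylation and are shared with telomerase, Nhp2 rose. Nhp2 (chr11:51619773-51623718) had 307, 275 and 297 CPM in KO and 300.2, 191 and 374 CPM in WT vehicle cultures, against 122 and 91.1 CPM in fresh KO and 192, 159.6 and 150.0 CPM in fresh WT cells. The KO groups were far apart, whereas the lowest WT vehicle library lay just under the highest fresh WT one. With a log2 fold change of 1.12 (SE 0.20, adjusted p = 0.00252), Nhp2 had the smallest p of the 40, and every fit that left out a library kept the call, up to adjusted p = 0.0134. Dkc1, dyskerin, the pseudouridine synthase of the particle, had 284, 226 and 329 CPM in KO and 233, 258 and 323 CPM in WT vehicle cultures, against 212 and 220.4 CPM in fresh KO and 174, 177 and 217 CPM in fresh WT cells. Gar1 had 83.1, 71.5 and 91.2 CPM in KO and 118, 69.9 and 103 CPM in WT vehicle cultures, against 65.8 and 60.9 CPM in fresh KO and 68.1, 63.2 and 66.6 CPM in fresh WT cells. Both were higher in every vehicle library than in every fresh one, by narrow margins. Neither passed the test, at log2 fold changes of 0.45 (SE 0.30) for Dkc1 and 0.46 (SE 0.22) for Gar1.

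**Figure D3:**
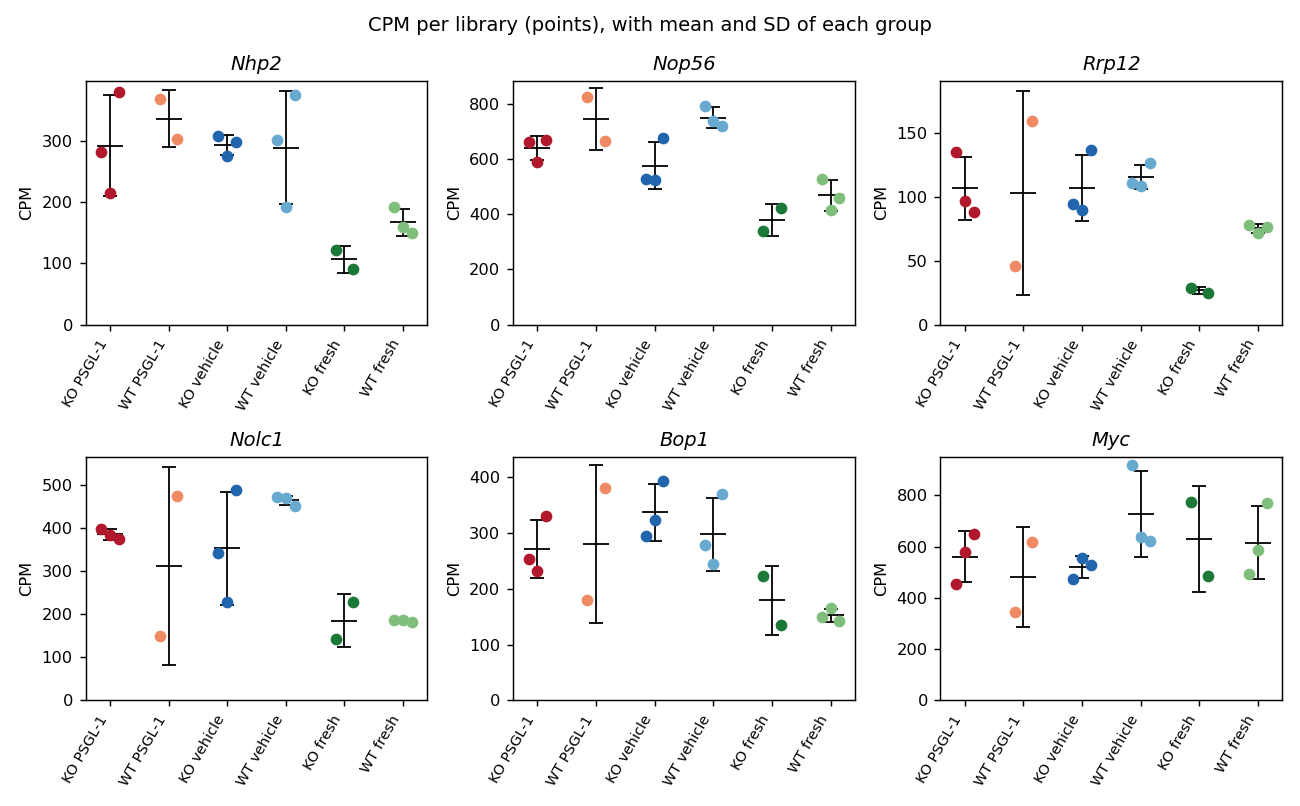
CPM of Nhp2, Nop56, Rrp12, Nolc1, Bop1 and Myc in each library (points), with the mean and SD of each of the 6 groups. The first 5 genes have higher means in the vehicle groups than in the fresh groups of the same genotype, and the points of Myc overlap between vehicle and fresh within each genotype.

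None of the 3 subunits of RNA polymerase I passed. Polr1a had 77.4, 129 and 73.2 CPM in KO and 111, 136 and 110.3 CPM in WT vehicle cultures, against 18.1 and 51.1 CPM in fresh KO and 89.7, 82.1 and 105 CPM in fresh WT cells. Vehicle libraries exceeded fresh ones within each genotype, but the values of a group spread widely, and the log2 fold change of 0.90 had an SE of 0.60. Polr1b, the second largest subunit, had 109, 138 and 84.9 CPM in KO and 83.8, 63.7 and 126 CPM in WT vehicle cultures, against 63.6 and 97.3 CPM in fresh KO and 87.2, 124 and 105 CPM in fresh WT cells. Polr1c, a subunit shared with RNA polymerase III, had 44.9, 59.1 and 116 CPM in KO and 89.9, 20.4 and 87.5 CPM in WT vehicle cultures, against 56.2 and 59.6 CPM in fresh KO and 82.0, 83.3 and 75.4 CPM in fresh WT cells. Both genes overlapped between culture and fresh. Their log2 fold changes were 0.12 (95% interval −0.40 to 0.65) for Polr1b and 0.03 (−0.74 to 0.80) for Polr1c.

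Of the 12 small-subunit factors, Rrp12 alone rose, and the median log2 fold change of the 12 was 0.54. Rrp12, a factor of pre-ribosome export (chr19:41859483-41896153), had 94.5, 89.9 and 137 CPM in KO and 111, 109 and 126 CPM in WT vehicle cultures. In fresh cells it had 28.9 and 24.7 CPM in KO and 78.1, 71.5 and 76.5 CPM in WT. Neither genotype overlapped, and the fresh KO libraries were the lowest of all 16. Its log2 fold change of 1.31 (SE 0.28, adjusted p = 0.0113) was the largest of the 40, and the call held in all 16 fits without a library. Heatr1, a component of the complex that processes the small-subunit precursor, had 86.4, 173 and 91.5 CPM in KO and 111, 142 and 104 CPM in WT vehicle cultures, against 25.5 and 63.3 CPM in fresh KO and 70.8, 94.4 and 107 CPM in fresh WT cells. KO libraries did not overlap and WT ones did, and the log2 fold change of 0.89 (SE 0.32, adjusted p = 0.128) did not pass.

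The calls of Utp20 and Ltv1 depend on the WT PSGL-1 libraries. Utp20 had 85.8, 86.0 and 126 CPM in KO and 56.6, 28.0 and 52.3 CPM in WT vehicle cultures, against 29.6 and 15.3 CPM in fresh KO and 43.7, 60.3 and 33.1 CPM in fresh WT cells. The KO groups did not overlap and the WT groups did. The adjusted p of Utp20 was 0.186 with all 16 libraries and 0.0214 without WT PSGL-1 replicate 1, in which it was at 7.66 CPM, against 65.8 CPM in replicate 2. Ltv1, a factor of late small-subunit maturation, lay between 99.3 and 146 CPM in the 6 vehicle libraries, against 62.5 to 83.3 CPM in the 5 fresh ones. It had 0 counts in WT PSGL-1 replicate 1 and 104 CPM in replicate 2. With all 16 libraries, which include both of these, the adjusted p of Ltv1 was 0.691. Nob1, the endonuclease that completes the small-subunit rRNA, had 118, 119 and 150.0 CPM in KO and 123, 169 and 195 CPM in WT vehicle cultures, against 111 and 186 CPM in fresh KO and 123, 145 and 142 CPM in fresh WT cells. These libraries overlapped in both genotypes, with a log2 fold change of 0.02 (95% interval −0.40 to 0.45). The other 7 small-subunit factors, Wdr43, Wdr75, Nop14, Ddx10, Bysl, Tsr1 and Nat10, did not pass. Their log2 fold changes ran from −0.24 for Ddx10 to 0.72 for Bysl.

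Of the 11 large-subunit factors 3 rose, Bop1, Rrp1b and Mrto4, and the median was 0.60. Bop1 (chr15:76452988-76477249), which with Pes1 and Wdr12 forms a complex for maturation of the large-subunit rRNA, had 294, 323 and 393 CPM in KO and 279, 243 and 369 CPM in WT vehicle cultures. In fresh cells it had 222 and 136 CPM in KO and 150.0, 165 and 141 CPM in WT. Culture and fresh did not overlap, and the log2 fold change was 0.94 (SE 0.21, adjusted p = 0.0143), or adjusted p = 0.0611 without KO fresh replicate 2. Pes1 had 164, 188 and 131 CPM in KO and 207, 92.4 and 159 CPM in WT vehicle cultures, against 138 and 145 CPM in fresh KO and 174, 137 and 172 CPM in fresh WT cells. The Pes1 libraries overlapped, with a log2 fold change of 0.05 (95% interval −0.39 to 0.50), and Wdr12 was at 0.42 (SE 0.18, adjusted p = 0.192). Whether Bop1 differs from its partners was not tested.

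Rrp1b, a nucleolar protein of large-subunit assembly (chr17:32036162-32062865), had 119, 127 and 181 CPM in KO and 165, 126 and 184 CPM in WT vehicle cultures, against 51.1 and 71.7 CPM in fresh KO and 88.8, 76.7 and 124 CPM in fresh WT cells. The WT groups came within a few CPM of each other and the KO groups did not. The log2 fold change was 0.96 (SE 0.22, adjusted p = 0.0163), or adjusted p = 0.108 without KO fresh replicate 1. Mrto4, which in yeast holds the place of a stalk protein on the pre-ribosome (chr4:139347440-139352576), averaged 103 ± 4.84 CPM in KO vehicle cultures and 98.4 ± 6.24 CPM in WT ones (SD, n = 3 each). Fresh cells averaged 46.2 ± 0.851 CPM in KO (SD, n = 2) and 67.8 ± 19.6 CPM in WT (SD, n = 3). The log2 fold change was 0.85 (SE 0.21, adjusted p = 0.0222), a call that 3 of the 16 fits without a library lost. Of the other 6, Ddx18 was at −0.08 (SE 0.19) and Nop2, Nop16, Rrs1, Ebna1bp2 and Nip7 lay between 0.27 and 1.01. None of these 6 passed. Nop2, an rRNA methyltransferase, had the widest error of the role group (SE 0.43), and Nop16 had adjusted p = 0.0676.

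**Figure D4:**
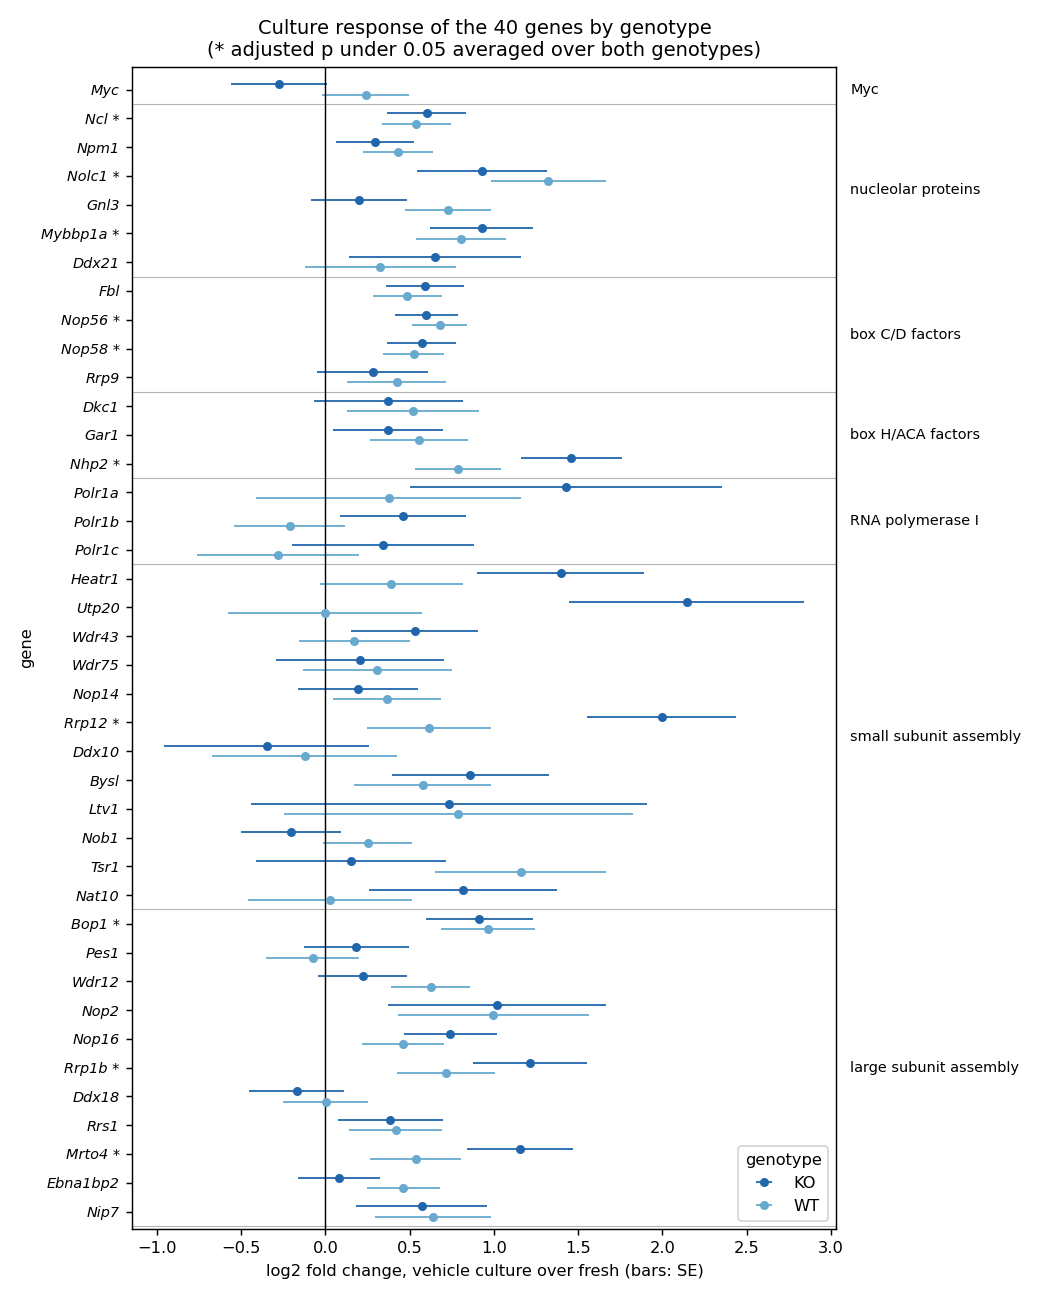
Log2 fold change of vehicle culture over fresh cells for the 40 genes by role, in KO (dark blue, upper point of each gene) and WT (light blue), with bars of 1 SE. Asterisks mark the 10 genes past the adjusted threshold averaged over both genotypes, and most points of both genotypes lie right of 0.

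Myc itself did not change detectably. Myc (chr15:61985341-61990361) had 474, 558 and 529.5 CPM in KO and 919, 638 and 622 CPM in WT vehicle cultures, against 776 and 484 CPM in fresh KO and 492, 586 and 769 CPM in fresh WT cells. Its libraries overlapped in both genotypes. The log2 fold change was −0.02 (95% interval −0.43 to 0.39), with −0.28 (SE 0.29) in KO and 0.24 (SE 0.26) in WT cells. Of 11 tested genes of the Myc network (Mycn, Max and their partners and antagonists), 1 changed, where 6.48% of all genes did. Mycn, the paralog of Myc that HSCs also express, had 63.2, 70.4 and 95.2 CPM in KO and 55.6, 36.5 and 76.5 CPM in WT vehicle cultures, against 591 and 612 CPM in fresh KO and 219, 413 and 442 CPM in fresh WT cells. Every vehicle library was below every fresh one. Mycn fell by 2.82 on the log2 scale (SE 0.71, adjusted p = 0.0253). Its libraries with PSGL-1 lay between 0.564 CPM, in WT PSGL-1 replicate 1, and 153 CPM, in replicate 2 of that group. These 2 unlike libraries enter the shared estimate of the spread behind that SE and adjusted p. Per kb of exon, Mycn was at 23.1 CPM per kb in KO vehicle cultures and 17.1 CPM per kb in WT ones, against 183 CPM per kb in fresh KO and 109 CPM per kb in fresh WT cells. Max was at 0.08 (SE 0.26) and did not pass.

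Taken by genotype, vehicle culture raised 2 of the 40 genes in KO cells, Nhp2 at 1.46 (SE 0.30, adjusted p = 0.0191) and Rrp12 at 1.996 (SE 0.44, adjusted p = 0.0295), where 1.23% of all genes rose. In KO cells 14 had an unadjusted p under 0.05, as did 11.7% of all genes, and DESeq2 called 5 and limma 1 of the 40, where 3.68% and 1.27% of all genes were called higher. In WT cells none of the 40 passed in edgeR, where 1.23% of all genes rose, while 12 had an unadjusted p under 0.05, as did 12% of all genes. DESeq2 called 3 and limma 6 of the 40 in WT cells, where 3.02% and 2.92% of all genes were called higher. Without either WT PSGL-1 library 3 were called, Bop1, Nolc1 and Nop56, where 1.87% of all genes rose without replicate 1, and without either KO fresh library Nop56 alone was. For the fits without a KO library or without WT PSGL-1 replicate 2, the shares of all genes are not given in this paragraph. Counts from those fits show how far the calls moved and do not set the 40 against other genes. With all 16 libraries the smallest adjusted p in WT cells was that of Nop56 (0.0513, log2 fold change 0.68). Medians were 0.57 in KO and 0.47 in WT cells, with 36 and 35 of the 40 above 0. In KO, 20 of the 40 had every vehicle library above every fresh one, where 16.3% of all genes did, and in WT 18 did, against 10.3%. None of the 40 lay wholly below in either genotype, where 19% of all genes did in KO and 12.7% in WT. The 2 comparisons share no library, and 32 of the 40 (80%) were above 0 in both, against 31.0% of all genes. The difference of the response between genotypes passed for none of the 40. The largest difference was 2.14 for Utp20 (SE 0.89, adjusted p = 1), and 2 of the 40, Utp20 and Rrp12, had an unadjusted p under 0.05, where 2.5% of all genes did. DESeq2 and limma also called none of the 40, where DESeq2 called 0.489% and limma 0% of all genes. In KO cells 5 genes were called without either WT PSGL-1 library, Nhp2, Rrp12, Mrto4, Rrp1b and Utp20, where 2.4% of all genes rose without replicate 1. By contrast, leaving out KO fresh replicate 1, KO fresh replicate 2, KO vehicle replicate 1 or KO vehicle replicate 3 left none, and Rrp12 lost its call without KO vehicle replicate 2.

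Other genes of the same pathways were listed for comparison, with none of the 40 among them. Of 42 other small-subunit factors 2 rose, Pno1 and Utp4, where 4.18% of all genes did, with a median of 0.16 over the list. Of 39 other large-subunit factors 3 rose, Ftsj3, Pak1ip1 and Rbm28, against the same 4.18%, with a median of 0.25. None of 12 other RNA polymerase I genes (median −0.09) and none of 11 other factors of small nucleolar ribonucleoproteins (median 0.31) passed. Pno1, a partner of Nob1 in late small-subunit maturation, had 83.0, 52.4 and 81.8 CPM in KO and 84.3, 97.8 and 98.0 CPM in WT vehicle cultures, against 24.0 and 25.4 CPM in fresh KO and 43.6, 51.6 and 41.2 CPM in fresh WT cells. These groups did not overlap, and the log2 fold change was 1.30 (SE 0.22, adjusted p = 0.00218). Whether these lists differ from the 40 was not tested.

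Known Myc targets outside ribosome biogenesis were listed in the same way. Of 27 tested, 17 rose and 1 fell, where 4.18% and 2.3% of all genes did, with a median of 0.70. Tfrc, the transferrin receptor, had 96.0, 117 and 102 CPM in KO and 139, 190.5 and 117 CPM in WT vehicle cultures, against 17.7 and 22.8 CPM in fresh KO and 37.5, 19.0 and 10.3 CPM in fresh WT cells. The groups lay far apart, with a log2 fold change of 2.56 (SE 0.35, adjusted p = 0.000375). Ldha, lactate dehydrogenase, rose by 0.82 (SE 0.11, adjusted p = 0.00044), Nme1, a nucleoside diphosphate kinase, by 1.10 (SE 0.16, adjusted p = 0.000629) and Ran, the nuclear transport GTPase, by 0.94 (SE 0.14, adjusted p = 0.00097). The mitochondrial chaperone Hspd1 rose by 0.82 (SE 0.13, adjusted p = 0.000971) and Set, a histone chaperone, by 0.81 (SE 0.13, adjusted p = 0.00111). The D-type cyclin gene Ccnd2 fell, by 1.11 on the log2 scale (SE 0.17, adjusted p = 0.00102).

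Markers of proliferation and of other cells moved with the same contrast. The summed level of 13 proliferation genes was 6276 ± 165 CPM in KO and 6349 ± 46.4 CPM in WT vehicle cultures (SD, n = 3 each). It was 2056 ± 612 CPM in fresh KO (SD, n = 2) and 3164 ± 432 CPM in fresh WT cells (SD, n = 3). Of the 13, 11 rose, where 4.18% of all genes did. The summed level of 8 granulocyte and monocyte genes ranged from 16.8 to 321 CPM in the 6 vehicle libraries, against 284 to 673 CPM in the 5 fresh ones. Of these 8, Prtn3, which had counts in all 16 libraries, fell. Mpo was at 0 in 10 and Ctsg in 13 of the 16 libraries. The summed level of 6 erythroid genes ranged from 4.36 to 53.6 CPM in vehicle libraries, against 47.1 to 192 CPM in fresh ones, and none passed. That of 6 T and NK cell genes ranged from 10.4 to 21.8 CPM in vehicle libraries, against 38.6 to 99.9 CPM in fresh ones, and Klrb1c fell. Klrb1c was at 0 in 10 of the 16 libraries, and Cd3e, Cd3d and Cd8a were at 0 in all 16. Nkg7 had the highest mean of the 6, at 26.2 CPM. Of 6 megakaryocyte and platelet genes, summing to 612 to 1304 CPM in vehicle libraries, against 989 to 1564 CPM in fresh ones, Gp9 and Vwf fell. Of 8 HSC genes, 7 were below 0, with a median log2 fold change of −0.99. They summed to 1969 ± 79.0 CPM in KO and 1582 ± 262 CPM in WT vehicle cultures (SD, n = 3 each). Fresh cells had 2510 ± 90.3 CPM in KO (SD, n = 2) and 2272 ± 238 CPM in WT (SD, n = 3). Among these genes, Ly6a rose while Kit fell. The part of these shifts in the results on the 40 genes was not tested.

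The comparison of PSGL-1 with vehicle asks what the ligand added to culture. None of the 40 genes passed in KO cells, where 0% of all genes did, and none had an unadjusted p under 0.05, as 1.4% of all genes did. DESeq2, which called 0.29% of all genes, and limma, which called 0%, called none of the 40 either. The median log2 fold change was −0.01. Nhp2 averaged 292 ± 82.5 CPM with PSGL-1 and 293 ± 16.4 CPM with vehicle (SD, n = 3 each), and Nop56 averaged 639 ± 43.3 CPM with PSGL-1 and 576 ± 86.0 CPM with vehicle. Nop16 was the only gene whose KO groups did not overlap, at 112 ± 6.61 CPM with PSGL-1 and 130.2 ± 11.2 CPM with vehicle, where 3.96% of all genes lay lower and 4.1% higher without overlap. Myc had 454, 579 and 648 CPM with PSGL-1 and 474, 558 and 529.5 CPM with vehicle in KO cells. These libraries overlapped, with a log2 fold change of 0.11 (SE 0.26).

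In WT cells none of the 40 passed between PSGL-1 and vehicle in edgeR, DESeq2 or limma, where edgeR and limma called 0% and DESeq2 1.62% of all genes. Polr1b alone had an unadjusted p under 0.05, at a log2 fold change of 0.83 (SE 0.36, adjusted p = 0.774), where 5.69% of all genes had one. Its libraries with PSGL-1, and those of Heatr1 and Ddx18, lay wholly above the vehicle ones, as in 5.88% of all genes, and those of Myc, Ltv1 and Mrto4 wholly below, as in 8.07%. Polr1b had 137 and 187 CPM with PSGL-1, against 83.8, 63.7 and 126 CPM with vehicle. Myc had 344 and 619 CPM with PSGL-1, against 919, 638 and 622 CPM with vehicle. Both PSGL-1 libraries were below all 3 vehicle libraries, the second by a narrow margin, and the log2 fold change of −0.59 (SE 0.29, adjusted p = 0.774) did not pass. It was −0.24 without replicate 1, and −1.10 (adjusted p = 0.0281) with replicate 1 as the only WT PSGL-1 library. No gene of the 40 passed for a difference in PSGL-1 response between genotypes in edgeR, DESeq2 or limma, which called 0%, 0.835% and 0% of all genes. None had an unadjusted p under 0.05 in edgeR, where 4.33% of all genes had one. For Myc the difference was 0.70 (SE 0.39, adjusted p = 1).

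The WT PSGL-1 values rest on 2 unlike libraries. In replicate 1, Ltv1 had 0 counts, Polr1a was at 6.82, Utp20 at 7.66, Nop2 at 34.3 and Dkc1 at 59.7 CPM, whereas replicate 2 had 104, 131, 65.8, 326 and 315 CPM of these genes in the same order. Of the 40 genes, 10 had their lowest value of all 16 libraries in replicate 1, Myc among them. Another 7 had their highest there, namely Mybbp1a, Nop56, Heatr1, Nop14, Bysl, Nob1 and Rrp1b. In replicate 1, 5165 of the 14124 tested genes had 0 counts, against 1101 to 3162 in the other 15 libraries. The share of all genes with an extreme in replicate 1 is not given here, so these counts are no trait of the 40. With replicate 1 as the only WT PSGL-1 library, 11 of the 40 genes were called lower than with vehicle, Myc among them, where 17% of all genes were called lower. Between genotypes under PSGL-1, 8 were then called higher in KO than in WT cells, where 17.2% of all genes were called higher. With replicate 2 alone, no gene of the 40 was called in either comparison, where 0% and 0.00662% of all genes were.

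The comparison of KO with WT asks whether loss of Selp altered these genes. None of the 40 passed in fresh cells, vehicle culture or culture with PSGL-1, or averaged over the conditions, in edgeR, DESeq2 or limma. In edgeR 0.00708% of all genes passed within each condition and 0.0354% on average. DESeq2 called 0.658% of all genes in fresh cells, 0.786% with vehicle, 1.77% with PSGL-1 and 1.71% on average, and limma 0.0496%, 0.0212%, 0% and 0.0354%. An unadjusted p under 0.05 was seen for 2, 1, 3 and 4 of the 40, where 2.84%, 2.83%, 5.81% and 6.84% of all genes had one. Averaged over the conditions, 31 of the 40 were below 0, with a median of −0.12, against 0.07 over all genes. Without WT PSGL-1 replicate 1, 35 of the 40 were below 0 with a median of −0.18, and without replicate 2, 20 were, with a median of 0.02. Nop56 at −0.30 (SE 0.10) and Mybbp1a at −0.48 (SE 0.17) had the smallest p, both with adjusted p = 0.611. With PSGL-1, Nop56 averaged 639 ± 43.3 CPM in KO cells (SD, n = 3), against 743 ± 112 CPM in WT cells (SD, n = 2). With vehicle it averaged 576 ± 86.0 CPM in KO cells, against 749 ± 37.5 CPM in WT cells (SD, n = 3 each). Fresh KO cells averaged 380.4 ± 57.7 CPM (SD, n = 2), against 468 ± 56.3 CPM in fresh WT cells (SD, n = 3).

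In fresh cells the KO libraries lay wholly below the WT ones for 10 of the 40 genes, where 9.2% of all genes did, and wholly above for none, where 9.78% did. The 10 were Ncl, Nhp2, Polr1a, Polr1c, Heatr1, Utp20, Rrp12, Nat10, Rrp1b and Mrto4. Rrp12, the gene with the smallest p, was at 28.9 and 24.7 CPM in KO, against 78.1, 71.5 and 76.5 CPM in WT cells, a log2 fold change of −1.49 (SE 0.43, adjusted p = 1). DESeq2 gave adjusted p = 0.0733 for it. Nhp2 was at −0.65 (SE 0.29, adjusted p = 1). In vehicle cultures neither gene stood apart, with Rrp12 at 107 ± 25.7 CPM in KO cells, against 115 ± 9.56 CPM in WT cells, and Nhp2 at 293 ± 16.4 CPM in KO cells, against 288 ± 91.8 CPM in WT cells (SD, n = 3 each). The KO libraries lay wholly below the WT ones for Nop56 and Myc and wholly above for Utp20, where 4.2% and 5.14% of all genes did. With PSGL-1, 4 of the 40 genes lay wholly lower in KO than in WT cells, Mybbp1a, Nop14, Nop16 and Ddx18, where 6.92% of all genes did. Wholly higher lay Utp20, Ltv1 and Mrto4, where 10.8% did. The fresh KO libraries enter both this comparison and the culture response of KO cells, so the 2 are not independent. The proliferation genes summed to 2056 ± 612 CPM in fresh KO (SD, n = 2) and 3164 ± 432 CPM in fresh WT cells (SD, n = 3), and the granulocyte and monocyte genes to 642 ± 44.1 CPM in fresh KO and 309.9 ± 26.9 CPM in fresh WT cells. The part of these differences in the values of the 40 genes was not tested.

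**Figure D5:**
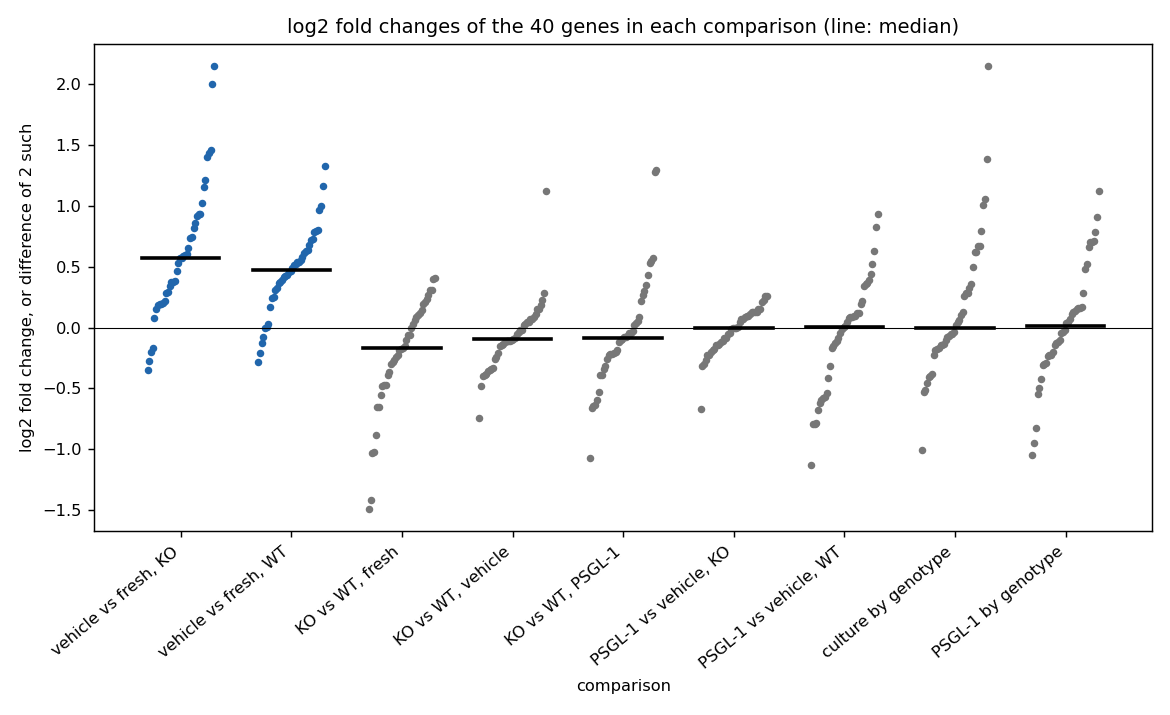
Log2 fold changes of the 40 genes (points, sorted within a comparison) in 9 comparisons, with the median as a line, and differences of 2 log2 fold changes in the last 2 columns. The medians of the culture comparisons are 0.57 in KO and 0.47 in WT cells, and the other medians lie between −0.17 and 0.01.

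Some values hold reads that cannot be assigned with certainty. Of the genes called over both genotypes, Nhp2 has exons that overlap Rmnd5b on the other strand. In the same way Nop56 overlaps Idh3b, Mybbp1a overlaps Spns2, Bop1 overlaps Mroh1 and Rrp1b overlaps Hsf2bp. Genes without that call have such overlaps too, among them Dkc1 with Mpp1, Heatr1 with Lgals8, Rrp9 with Parp3 and Gnl3 with Pbrm1. Whether counting used strand was not given in the sources used here, so reads of such pairs could not be told apart. Ncl, Nop56, Nop58 and Gnl3 host small RNA genes within their annotated span, and Mrto4 has processed pseudogenes with which it may share reads.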

How the data were processed

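The authors deposited raw read counts per gene symbol for the 16 libraries, made per the labels' protocols with the RNeasy Plus Micro and SMART Ultra-Low Input v4 kits. Per the submitters' processing notes, STAR 2.7.5c, featureCounts, MultiQC 1.10, DESeq2 and the build mm10 were used. Annotation, strand setting and treatment of multiply mapped reads were not given in the sources used here, and no molecular identifiers are named, so the detection floor of 3 counts covers counting error only.

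From the counts, edgeR 4.0.16 (R 4.3.3) was fitted to all 16 libraries with TMM scaling, filterByExpr by group, a mean per group and robust quasi-likelihood F tests, and p-values were adjusted over all 14124 genes tested. Standard errors come from the fold change and F, and intervals are 95%. Steps were tested on simulated data. Levels are CPM on the TMM-scaled library size. Where genes are set side by side, they are divided by the length of the union of a gene's exons (GENCODE M21). DESeq2 1.42.0, limma 3.58.1 voom with quality weights, RLE scaling, other filters, groups alone, each library left out and replicate blocks were alternatives. No pair of libraries within a group agreed within sampling noise (chi-square per degree of freedom at least 59.8). The common biological coefficient of variation was 0.977. The genes, lists and tests were chosen with earlier results of these data known. Libraries are given singly for Myc and, in each role group, the 2 genes with the smallest and the gene with the largest p between vehicle culture and fresh cells. Other lists give up to 6 called genes per direction, and a marker gene is not reported here. Ncl, Mrto4, Fbl, Utp20 and Ltv1 were added after their values were seen.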

Additional observations from a re-analysis of the deposited data

How the results depend on the processing

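Averaged over both genotypes, the number of the 40 genes called between vehicle culture and fresh cells was 10, with 7 to 13 over the alternatives of tool, scaling, filter, samples and block, and 4 to 15 when a library was left out. In KO cells the 2 calls became 5 with DESeq2, 1 with limma voom and 0 to 5 without a library. In WT cells, where there was no call, there were 3 with DESeq2, 6 with limma voom, 1 with the stricter filter of 5 CPM, 1 with only the groups compared and 0 to 3 without a library. Without a library the calls ranged from 0 to 8 for KO against WT under PSGL-1, 0 to 5 averaged over conditions, 0 to 11 for PSGL-1 against vehicle in WT and 0 to 7 for the PSGL-1 response between genotypes. All calls in these last 4 comparisons came with WT PSGL-1 replicate 1 as the lone library of its group, assumed to vary like the others. The shares of all genes called in either direction in those fits were 19.8%, 15.1%, 19.7% and 15.8%, in the same order.

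Samples that share a replicate number did not deviate together over 36 pairs, with correlations of −0.0721 to 0.0759 for the numbers of the titles and −0.0722 to 0.1 for runs of 6 library numbers. With the replicate block by titles, 1 of the 40 genes was called in KO, 0 in WT and 9 over both genotypes. With the block by runs of 6, 1, 1 and 10 were. The shares of all genes called are not given for the block fits, the stricter filter or the fits of only the groups compared. Those counts therefore show how far the calls moved, and do not set the 40 against other genes.

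Direction was followed for Myc and, between vehicle culture and fresh cells, for the genes chosen by p in each role group. Among these, the log2 fold changes that turned direction belonged to genes without a call in that comparison, and the cause was not tested. Turns of the other genes are not listed. In WT cells 35 of the 40 were above 0 in edgeR, 33 in DESeq2 and 38 in limma voom. Over both genotypes Polr1c was at −0.045 with DESeq2, −0.060 with limma voom, −0.045 with RLE scaling, −0.036 with no filter and −0.12 with the replicate block by titles. Nob1 was at −0.044 under DESeq2 and RLE, −0.043 with no filter and −0.036 with that block, and Pes1 at −0.015 under DESeq2 and RLE and −0.010 with no filter. Myc was at 0.0062 with the block by runs of 6, and Pes1 in WT cells at 0.0047 with limma voom. Over the fits that left out a library, the range over both genotypes was −0.16 to 0.15 for Myc, −0.040 to 0.31 for Polr1b, −0.22 to 0.24 for Polr1c, −0.16 to 0.24 for Nob1 and −0.088 to 0.18 for Pes1. In KO cells it was −0.54 to 0.084 for Myc, −0.083 to 0.80 for Rrp9, −0.16 to 0.60 for Polr1c and −0.55 to 0.24 for Nob1. In WT cells it was −0.077 to 0.60 for Ddx21, −0.57 to 0.15 for Polr1c and −0.36 to 0.18 for Pes1. For Myc between KO and WT it was −0.34 to 0.31 in fresh cells, −0.14 to 0.73 under PSGL-1 and −0.20 to 0.092 over conditions, and for PSGL-1 against vehicle in KO −0.011 to 0.24. The 3-count floor bore on no gene of the 40 outside Ltv1 in WT PSGL-1 replicate 1.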
